A study of Homo sapiens with 6 samples.

Results

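The 7 genes described here, CCND3, CDC25A, CCNE1, CCNE2, E2F1, E2F2 and MCM10, act at the passage from G1 into S phase of the cell cycle. They were found by gene symbol among the 2681 entries with values in the authors' table, and each of the 7 had 1 entry. Messenger RNA of Hep3B cells, an established line from a human liver cancer (hepatocellular carcinoma), was sequenced in 3 samples kept at 20% oxygen (normoxia) and 3 kept at 1% oxygen (hypoxia) for 24 hours. Per the labels, both groups were of wild-type genotype, and both also carried the words genetic modification in the treatment field. What was modified is not given, and the extraction protocol speaks of subclones. The labels do not say whether the 3 samples of a group came from separate cultures, and the p-values may thus reflect technical spread alone.

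Cells leave G1 when D-type cyclins with CDK4 or CDK6, and then E-type cyclins with CDK2, phosphorylate the retinoblastoma protein and release the E2F transcription factors bound by it. E2F factors then switch on genes for DNA replication, and also the genes of cyclin E, CDC25A and E2F1 itself. CDC25A is a phosphatase that removes inhibitory phosphate from CDK2, and MCM10 helps activate the loaded replicative helicase at origins. Hypoxia is known to slow the entry of many cell types into S phase. Whether the retinoblastoma step works in Hep3B cells was not tested here.

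The authors' table holds only entries past a false discovery rate of 0.01 and an absolute log2 fold change of 1 in these same samples. A member with an entry therefore had to have changed, and the tests below restate that selection on the same counts. Over the listed entries the libraries held 5474597 to 10134230 counts, which are not library depths. Oxygen-response genes were high at 1% oxygen: CA9, a cell-surface carbonic anhydrase, was 59.0-fold higher and VEGFA, an angiogenic factor, 12.5-fold. Of 10 hepatocyte and hepatoma markers 5 had an entry, 1 higher and 4 lower, with a summed level of 1182 to 1487 normalized counts in normoxia and 677 to 759 in hypoxia. Of 9 fibroblast markers 0 had an entry, of 9 leukocyte markers 1 had one (CD68, 2093 to 2559 against 7985 to 10558 normalized counts), and of 8 endothelial markers 2 (CDH5 and EGFL7, 187 to 361 against 1593 to 3822 in sum). Of 7 cholangiocyte markers 5 had an entry, all 5 higher, with sums of 1422 to 2253 against 5245 to 8712. The part of these marker changes in the results below was not tested.

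Promoter sequences show which members carry at least 1 of 4 exact words of an E2F site near their start. RefSeq promoter windows on GRCh38.p14 (250 bases before to 50 after an annotated start) were found for 6 of the 7 genes, and not for CCNE2. The 4 words searched on both strands were TTTGGCGC, TTTCCCGC, TTTGCCGC and TTTCGCGC, which can overlap each other where one strand's word runs into the other's. Of 35116 promoter windows 3.31% held at least 1 of them. E2F1, E2F2 and CDC25A held a word, shown in capitals in the stretch from 150 bases before to 20 after the start, printed 5′ to 3′ on the gene's strand. MCM10 and CCNE1, which held none of the 4 words, are printed for comparison. The MCM10 stretch holds tttggcgg, which differs from TTTGGCGC in its last letter only and was not among the words searched.
E2F1, chr20:33686366-33686535, minus strand: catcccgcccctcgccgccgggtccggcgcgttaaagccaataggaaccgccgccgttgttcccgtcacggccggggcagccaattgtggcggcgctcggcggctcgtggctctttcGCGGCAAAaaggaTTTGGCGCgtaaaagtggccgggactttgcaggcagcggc
E2F2, chr1:23531214-23531383, minus strand: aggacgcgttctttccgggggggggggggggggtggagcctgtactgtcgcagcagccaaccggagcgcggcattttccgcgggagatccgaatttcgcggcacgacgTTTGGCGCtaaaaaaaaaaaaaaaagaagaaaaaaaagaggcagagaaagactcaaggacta
CDC25A, chr3:48188398-48188567, minus strand: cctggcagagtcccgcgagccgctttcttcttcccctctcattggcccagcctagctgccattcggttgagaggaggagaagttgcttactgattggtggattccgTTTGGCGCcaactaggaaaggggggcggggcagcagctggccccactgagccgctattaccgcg
MCM10, chr10:13161408-13161577, plus strand: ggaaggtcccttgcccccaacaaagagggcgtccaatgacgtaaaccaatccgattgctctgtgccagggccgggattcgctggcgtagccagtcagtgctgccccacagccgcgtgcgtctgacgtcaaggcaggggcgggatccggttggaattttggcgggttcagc
CCNE1, chr19:29811841-29812010, plus strand: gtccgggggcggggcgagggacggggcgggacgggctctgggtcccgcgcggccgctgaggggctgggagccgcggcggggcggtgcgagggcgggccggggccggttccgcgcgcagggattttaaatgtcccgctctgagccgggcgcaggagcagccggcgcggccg

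The word TTTGGCGC stood from -20 to -13 in E2F1, from -42 to -35 in E2F2 and from -44 to -37 in CDC25A, counted from the base before the annotated start as -1. E2F1 held a further word on the opposite strand, from -33 to -26. The 3 promoter windows of CCND3 held none of the 4 words. The core of the hypoxia response element, ACGTG or GCGTG on either strand, was in 48.4% of all windows. Among the members it was in MCM10, from -38 to -34, and in 1 of the 3 windows of CCND3. A match describes the letters of the window and not the binding of a factor, and the lack of a match is not the absence of a site.

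All 7 genes were lower at 1% oxygen, to between 14.2% and 29.5% of their normoxic level. MCM10 and CDC25A fell most, with log2 fold changes of -2.82 and -2.79, followed by E2F2 (-2.61), CCNE2 (-2.13), CCND3 (-1.92), E2F1 (-1.79) and CCNE1 (-1.76). In RNA from whole cultures, fewer cells at this stage of the cycle and less RNA of these genes per cell cannot be told apart. In each gene the highest hypoxia library was below the lowest normoxia library. All 7 were called by edgeR (quasi-likelihood test on counts, Benjamini-Hochberg adjusted p under 0.05), where 100% of the 2675 entries in the fit were called, 43.3% of them as lower and 56.7% as higher. Of the 2675 entries, 1152 (43.1%) had groups that did not overlap with hypoxia lower, where 1157 were lower. A further 1513 (56.6%) did not overlap with hypoxia higher. Lack of overlap, here and in the genes below, is thus what nearly every entry showed. The median log2 fold change was -2.13 over the 7 genes, -1.36 over the 1157 entries that fell and 1.11 over all entries in the fit.

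**Figure D1:**
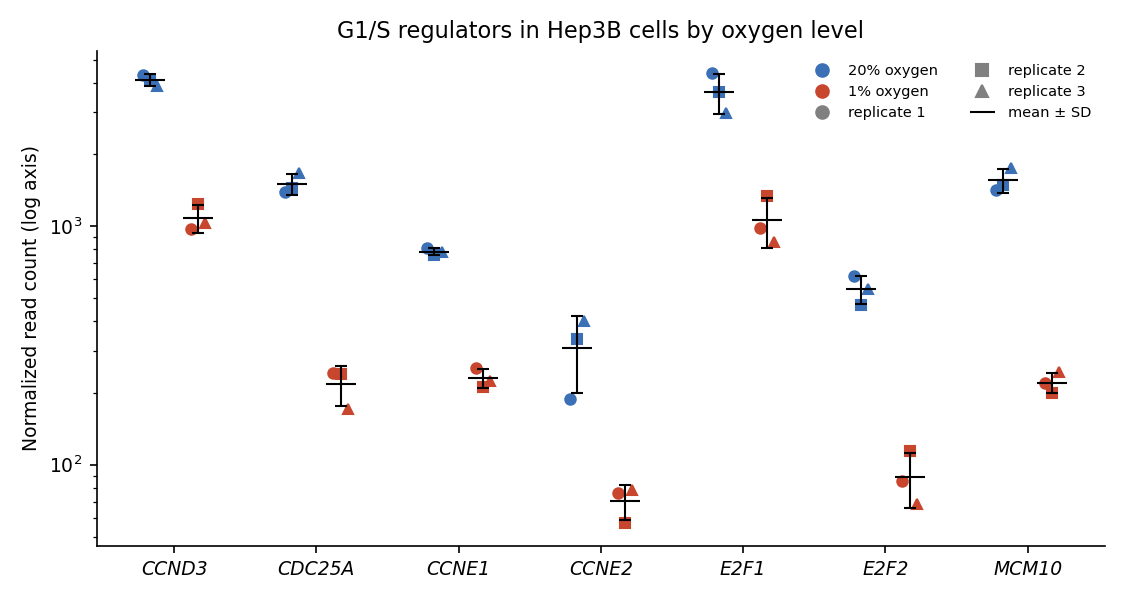
Normalized read counts (log axis) of the 7 genes in each library at 20% oxygen (blue) and 1% oxygen (red), with replicate numbers as symbols and the mean ± SD as bars. The 2 groups do not overlap in any of the 7 genes, and CCNE2 has the widest normoxic spread, from 189 to 402.

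CCND3 encodes cyclin D3, a D-type cyclin that activates CDK4 and CDK6 in G1. Its normalized counts were 4327, 4115 and 3876 in normoxia replicates 1 to 3 and 971, 1243 and 1032 in hypoxia replicates 1 to 3. The lowest normoxia library was 3.12 times the highest hypoxia library. The mean went from 4106 ± 226 to 1082 ± 143 (SD, n = 3 per group), a log2 fold change of -1.92 (SE 0.15, edgeR adjusted p = 2.24e-05). It was the most abundant of the 7 genes per length, at 61.6 ± 2.33 FPKM in normoxia and 13.3 ± 0.504 in hypoxia (SD, n = 3 per group). CCND3 lies on the minus strand of chromosome 6 from 41934933 to 42050357 in GENCODE 29 (GRCh38), with 23 transcripts from 18 starts, and its exons overlap AL513008.1.

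CDC25A had 1395, 1443 and 1674 normalized counts in the normoxia libraries and 243, 241 and 171 in the hypoxia libraries. The gap between the groups was wide, with the lowest normoxia library at 5.73 times the highest hypoxia library. Hypoxia replicate 3 was the lowest of its group, at 78.2% of the group mean. The mean of this CDK2-activating phosphatase went from 1504 ± 149 to 218 ± 41.3 (SD, n = 3 per group), a log2 fold change of -2.79 (SE 0.20, edgeR adjusted p = 1.56e-05). The gene spans 48157146 to 48188402 on the minus strand of chromosome 3 in GENCODE 29.

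CCNE1 encodes cyclin E1, a partner of CDK2 at the start of S phase, and had the tightest normoxia libraries of the 7 genes. They stood at 811, 758 and 776 normalized counts, and the hypoxia libraries at 253, 212 and 225. The lowest normoxia library was 2.99 times the highest hypoxia library. The mean went from 782 ± 27.4 to 230.1 ± 21.2 (SD, n = 3 per group), a log2 fold change of -1.76 (SE 0.16, edgeR adjusted p = 4.20e-05). CCNE1 lies on the plus strand of chromosome 19 from 29811898 to 29824308, with 0 other annotated genes overlapping it.

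CCNE2 encodes the related cyclin E2. Its normoxia libraries were far apart, at 189, 338 and 402 normalized counts in replicates 1 to 3, while the hypoxia libraries held 76.4, 56.9 and 78.2. Normoxia replicate 1 was the lowest of its group at 61.1% of the mean, and was still 2.42 times the highest hypoxia library. The mean went from 309.6 ± 109 to 70.5 ± 11.8 (SD, n = 3 per group), a log2 fold change of -2.13 (SE 0.33, edgeR adjusted p = 0.000434). Its SE was the largest of the 7. CCNE2 lies on the minus strand of chromosome 8 from 94879770 to 94896678, and 48.9% of its longest transcript is shared with annotated transcripts of INTS8, counting stretches of 50 bases on either strand. INTS8 had no entry among those analysed here, and no source used here says whether counting used strand, so the CCNE2 counts are uncertain.

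E2F1 is an activator E2F, held in check by the retinoblastoma protein in cells where that protein works. Its normalized counts were 4382, 3639 and 2972 in normoxia and 981, 1345 and 863 in hypoxia. Normoxia replicate 1 and hypoxia replicate 2 were the highest of their groups, and the lowest normoxia library was 2.21 times the highest hypoxia library, the smallest such gap among the 7 genes. The mean went from 3664 ± 705 to 1063 ± 251 (SD, n = 3 per group), a log2 fold change of -1.79 (SE 0.22, edgeR adjusted p = 0.000157). E2F1 has 1 annotated transcript and lies on the minus strand of chromosome 20 from 33675683 to 33686404.

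E2F2, a second activator E2F, had 619, 469 and 545 normalized counts in normoxia and 85.5, 114 and 68.2 in hypoxia. Hypoxia replicate 2 was again the highest of its group, and the lowest normoxia library was 4.13 times as high. The mean went from 544 ± 74.6 to 89.2 ± 23.0 (SD, n = 3 per group), a log2 fold change of -2.61 (SE 0.25, edgeR adjusted p = 5.27e-05). E2F2 lies on the minus strand of chromosome 1 from 23506430 to 23531220, and 2.35% of its longest transcript is shared with other genes.

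MCM10 had 1424, 1489.6 and 1764 normalized counts in normoxia and 219, 200.3 and 244 in hypoxia. The lowest normoxia library was 5.84 times the highest hypoxia library, the widest gap of the 7 genes. The mean of this helicase-activating replication factor went from 1559 ± 180.0 to 221 ± 21.8 (SD, n = 3 per group), a log2 fold change of -2.82 (SE 0.17, edgeR adjusted p = 7.93e-06). In the authors' deposited table it had the lowest false discovery rate of the 7 genes, 2.55e-53, and CCNE2 the highest, 1.69e-08. MCM10 lies on the plus strand of chromosome 10 from 13161554 to 13211104, with 0 other annotated genes overlapping it.

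Among the 1157 entries that were lower in hypoxia, ordered from the steepest fall, MCM10 stood at place 36, CDC25A at 37 and E2F2 at 49. CCNE2 stood at 132, CCND3 at 200, E2F1 at 260 and CCNE1 at 270. The 7 genes thus lie within the steepest 23.3% of the falls. As they were chosen with earlier results of these data known, these places can follow from that choice.

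Levels between genes were compared per length, in the authors' FPKM. CCND3 was first and E2F1 second in each of the 6 libraries, with E2F1 at 43.6 ± 5.36 FPKM in normoxia and 10.4 ± 1.43 in hypoxia (SD, n = 3 per group). CDC25A (12.4 ± 2.28), CCNE1 (11.9 ± 0.634) and MCM10 (11.4 ± 2.55) lay within their spread of each other in normoxia and changed places between libraries. At the low end, CCNE2 (3.14 ± 1.46) and E2F2 (3.14 ± 0.345) had normoxic levels within their spread of each other. In hypoxia CCNE1 came next after E2F1 in each library, at 3.03 ± 0.584 FPKM, above CDC25A (1.46 ± 0.219) and MCM10 (1.34 ± 0.327). CCNE2 (0.640 ± 0.229) and E2F2 (0.420 ± 0.0713) were last and overlapped. No test was made of these differences between genes.

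FPKM and counts did not carry the same information for each gene. The count per FPKM, corrected for library total, should be the same in each library if 1 transcript length was used. It differed between libraries by 0.137% for E2F1 and 1.04% for E2F2, but by 28.9% for CCNE2, from 95.8 to 123.5, and by a like amount for MCM10, from 129 to 167. The spread was 4.43% for CCND3, 6.07% for CDC25A and 7.77% for CCNE1. Annotated transcripts number 23 for CCND3, 8 for CCNE2 and 7 each for MCM10 and CCNE1. They number 5 for CDC25A, 2 for E2F2 and 1 for E2F1. Leaving CCND3 aside, the spread mostly rose with this number, though CCNE1 and MCM10 differed at the same number. CCND3, with the most transcripts, departed from this order. The part of transcript number in the spread was not tested. The log2 ratio of mean FPKM in hypoxia to normoxia was -3.09 for MCM10 and for CDC25A, -2.90 for E2F2, -2.30 for CCNE2, -2.21 for CCND3, -2.06 for E2F1 and -1.97 for CCNE1, with no overlap between groups.

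Within a group the replicates did not move alike. In normoxia, replicate 1 was at 120% of the group mean for E2F1 and 114% for E2F2, but at 91.4% for MCM10 and 61.1% for CCNE2. Normoxia replicate 3 was at 81.1% for E2F1, 100.1% for E2F2, 113% for MCM10 and 129.7% for CCNE2. In hypoxia, replicate 2 was at 127% for E2F1 and 128% for E2F2, and at 90.6% for MCM10 and 80.7% for CCNE2. Hypoxia replicate 3 was at 81.2% for E2F1 and 76.5% for E2F2, and at 110.2% for MCM10 and 110.9% for CCNE2. The GC content of the longest transcript is 62.5% for E2F1 and 57.5% for E2F2, and 43.3% for MCM10 and 36.9% for CCNE2. The GC-rich and GC-poor pairs thus lay on opposite sides of the group mean in normoxia replicate 1 and in hypoxia replicates 2 and 3. They did not in the other libraries. The order was not strict: in hypoxia replicate 2, CDC25A (51.7% GC) stood at 110.3% and CCNE1 (52.9% GC) at 92.2%, and in hypoxia replicate 3 CDC25A was low. The part of GC content in these values was not tested. Each fall was also seen without normoxia replicate 1 (-2.39 for CCNE2 and -1.64 for E2F1 on the log2 scale) and without hypoxia replicate 2 (-1.99 for E2F1).

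**Figure D2:**
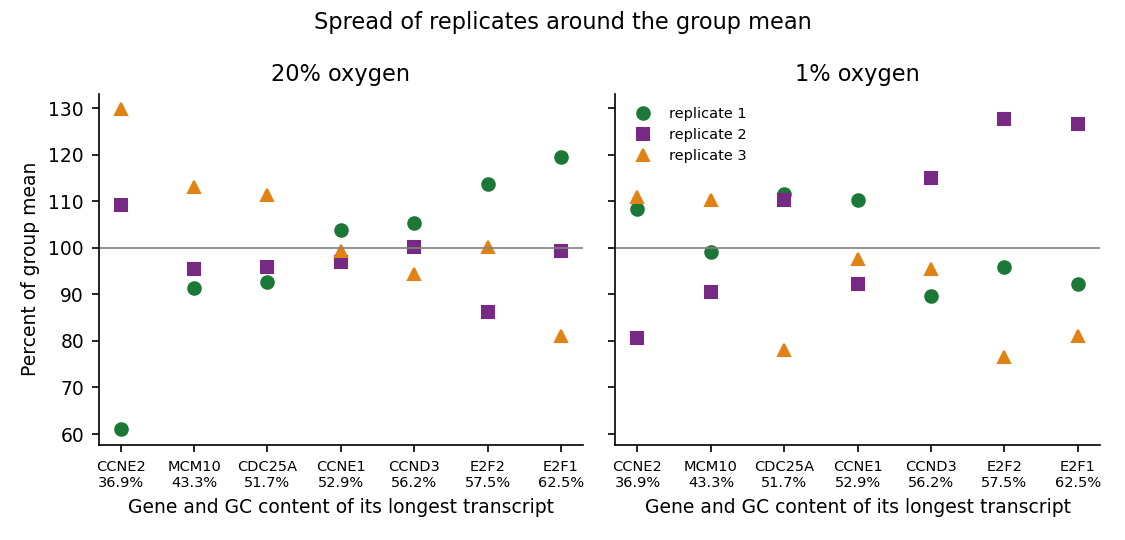
Normalized count of each library as a percent of its group mean (vertical axis), for the 7 genes ordered by GC content of the longest transcript, at 20% oxygen (left) and 1% oxygen (right); symbols are replicates. In normoxia replicate 1 runs from 61.1% for CCNE2 to 120% for E2F1, and in hypoxia replicate 2 from 80.7% for CCNE2 to 128% for E2F2.

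Ratios of paralogs within a library do not depend on how libraries were scaled. E2F2 gave 0.141, 0.129 and 0.183 counts per count of E2F1 in normoxia and 0.0872, 0.0846 and 0.0791 in hypoxia. Each hypoxia library was below each normoxia library, and the mean log2 ratio went from -2.74 to -3.58, a difference of -0.84. For CCNE2 per CCNE1 the ratios were 0.233, 0.446 and 0.517 in normoxia and 0.302, 0.268 and 0.348 in hypoxia. The groups overlapped, with a difference of -0.31 in mean log2 ratio that was smaller than the spread between normoxia libraries. A two-sided exact permutation test gave p = 0.1 for the E2F pair, the smallest that 3 against 3 allows, and p = 0.5 for the cyclin E pair (0.2 and 0.5 after Benjamini-Hochberg adjustment over the 2 pairs).

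**Figure D3:**
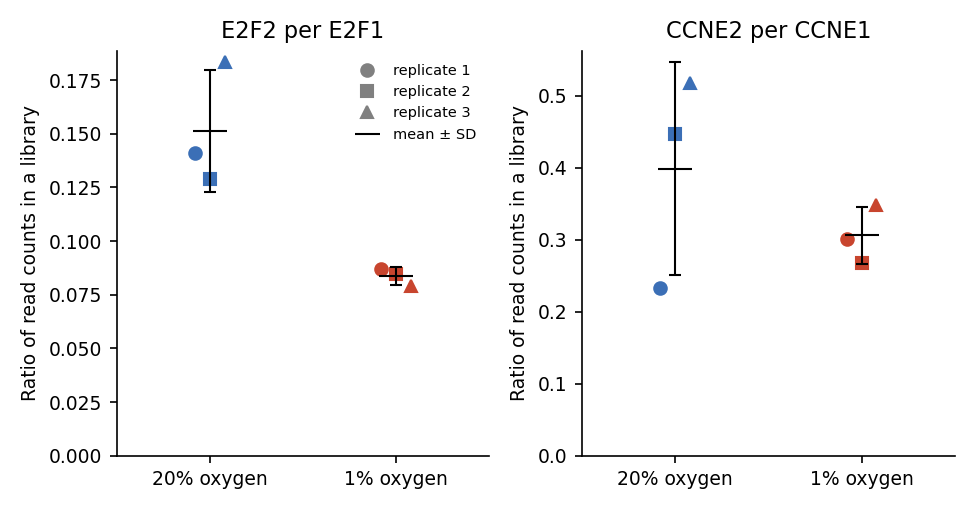
Read counts of E2F2 per count of E2F1 (left) and of CCNE2 per count of CCNE1 (right) in each library, with the mean ± SD. The E2F ratio is 0.129 to 0.183 at 20% oxygen and 0.0791 to 0.0872 at 1% oxygen, and the cyclin E ratios overlap.

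The size of each fall depends on the library scale. Each other scale tried moved the median of all entries down, so none could have weakened or reversed a fall. TMM and DESeq2 size factors were computed over entries selected as changed and were not used as the main scale. Scaling by TMM over the listed entries moved the median of all entries by -0.53 on the log2 scale, DESeq2 size factors by -0.78 and library totals recovered from FPKM by -0.27. The 7 genes moved down by about these shifts, with MCM10 at -3.35, -3.60 and -3.09 and CCNE1 at -2.29, -2.54 and -2.03. With DESeq2 size factors 53.7% of the called entries were lower, against 43.3% with the authors' scale: 1157 entries were called lower under both, and the entries called higher went from 1518 to 997.

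**Figure D4:**
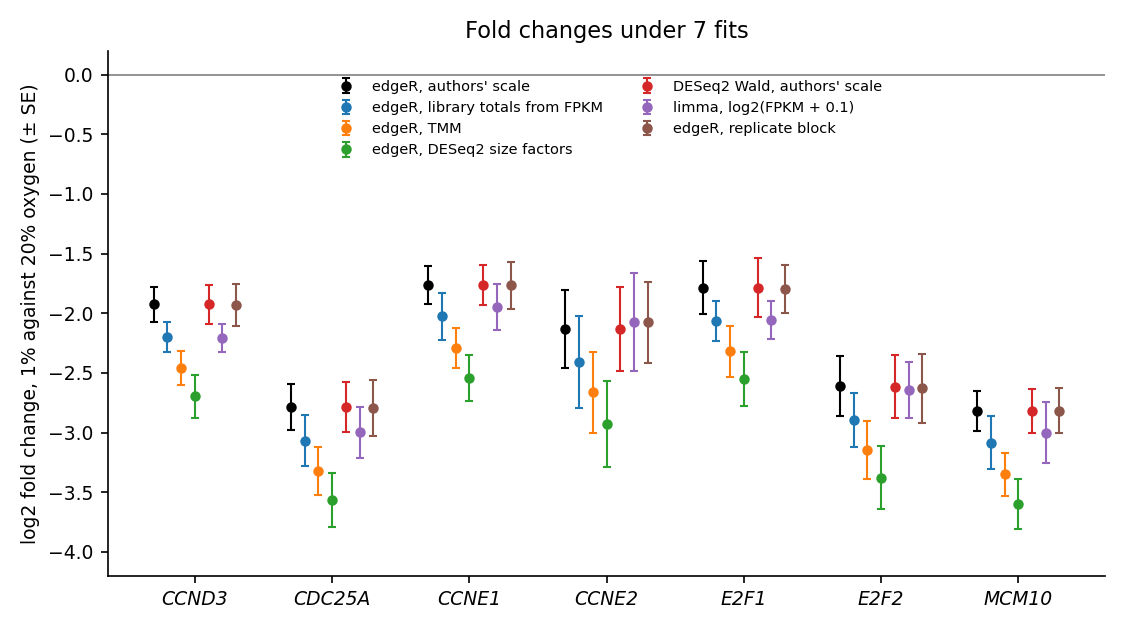
log2 fold change of 1% against 20% oxygen (± SE) for the 7 genes under 7 fits that differ in library scale, tool, unit or block. All values are below 0, and those with DESeq2 size factors are the steepest, for example -3.60 for MCM10 against -2.82 with the authors' scale.

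Other genes of the G1/S pathway were read from 9 lists of 113 genes, drawn up by role, of which 39 had an entry. Of these, 37 were lower and 2 higher, where 43.3% of all entries were called lower and 56.7% higher, the shares against which each list count below stands. Without the 7 genes, 30 of 106 were lower, 2 higher and 74 had no entry. A gene without an entry can have changed little, have missed the authors' limits, or not be expressed. Of the 30 others that were lower, 29 had a smaller fold change than each of the 7 genes, a description with no test. Members and lists were chosen with earlier results of these data known, so this difference can follow from that choice. The exception was CLSPN, a mediator of the replication checkpoint (-2.61, SE 0.41), named after its value was seen.

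Upstream in the pathway, 2 of 5 D-type cyclins and their kinases had an entry and both were lower, CCND3 and the kinase gene CDK6. CDK6 had 1801, 2169 and 2852 normalized counts in normoxia and 875, 610.3 and 965 in hypoxia, with no overlap and a log2 fold change of -1.48 (SE 0.24). Of 9 genes for E-type and A-type cyclins, CDK2 and its activators, 3 had an entry, CCNE1, CCNE2 and CDC25A, all lower. CCND1, CCND2, CDK4, CDK2 and CCNA2 had no entry among those analysed here.

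Of 7 CDK inhibitors 2 were listed, 0 lower and 2 higher, where 56.7% of all entries were called higher. CDKN1C, which encodes the inhibitor p57, had 451, 315 and 408 normalized counts in normoxia and 1210.1, 1298 and 1194 in hypoxia, 3.15-fold higher (edgeR adjusted p = 8.25e-05). CDKN1B, which encodes p27, had 804, 854 and 977 in normoxia and 2112, 1315 and 2204 in hypoxia, 2.14-fold higher (edgeR adjusted p = 0.00156). The groups did not overlap in either gene. The call of CDKN1B ended with DESeq2 size factors (log2 fold change 0.31, adjusted p = 0.213, range over its alternatives 1.16e-05 to 0.213), while CDKN1C passed under each scale, with a log2 fold change of 1.66 at the authors' scale and 0.89 with DESeq2 size factors. CDKN1A and the INK4 genes CDKN2A, CDKN2B, CDKN2C and CDKN2D had no entry.

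Among E2F and DP factors, 5 of 10 were listed, all 5 lower. Beside E2F1 and E2F2 they were TFDP1, the dimerization partner of E2F proteins (-1.35, SE 0.14), and the repressive members E2F6 (-1.60, SE 0.26) and E2F5 (-1.08, SE 0.17). E2F3, E2F4, E2F7, E2F8 and TFDP2 had no entry. Of 9 pocket protein and DREAM complex genes 1 was listed, LIN52 (-1.25, SE 0.30), and RB1, RBL1 and RBL2 had no entry. Of 12 ubiquitin ligase and checkpoint genes 3 were listed and lower, SKP2, whose product targets p27 for degradation (-1.08), the checkpoint kinase gene ATR (-1.40) and CLSPN.

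Of 15 licensing genes, which load the helicase at replication origins, 8 were listed, all lower where 43.3% of all entries were, with a median log2 fold change of -1.38, among them the loader CDC6 (-1.62), the origin recognition subunit ORC1 (-1.39) and the helicase subunits MCM6 (-1.60) and MCM2 (-1.03). Of 15 firing genes 5 were listed, all lower, MCM10 and the helicase partners GINS2 (-1.39), GINS3 (-1.32), CDC45 (-1.31) and GINS1 (-1.19). Of 31 genes for DNA synthesis and its supply 10 were listed, all lower, with a median of -1.22, among them the sliding clamp PCNA (-1.34), the histone chaperone subunit CHAF1B (-1.43) and UHRF1, which maintains DNA methylation (-1.66). In the list of 30 G2 and mitosis genes 1 had an entry, the cytokinesis scaffold ANLN (1.07, SE 0.33, edgeR adjusted p = 0.0127). ANLN had overlapping groups, with 6841 normalized counts in normoxia replicate 3 and 6637 in hypoxia replicate 2. Its call ended with library totals from FPKM (adjusted p = 0.0687), TMM (0.148), DESeq2 size factors (0.424) and both FPKM fits (0.0832 and 0.0842), over a range of 0.00129 to 0.424.

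**Figure D5:**
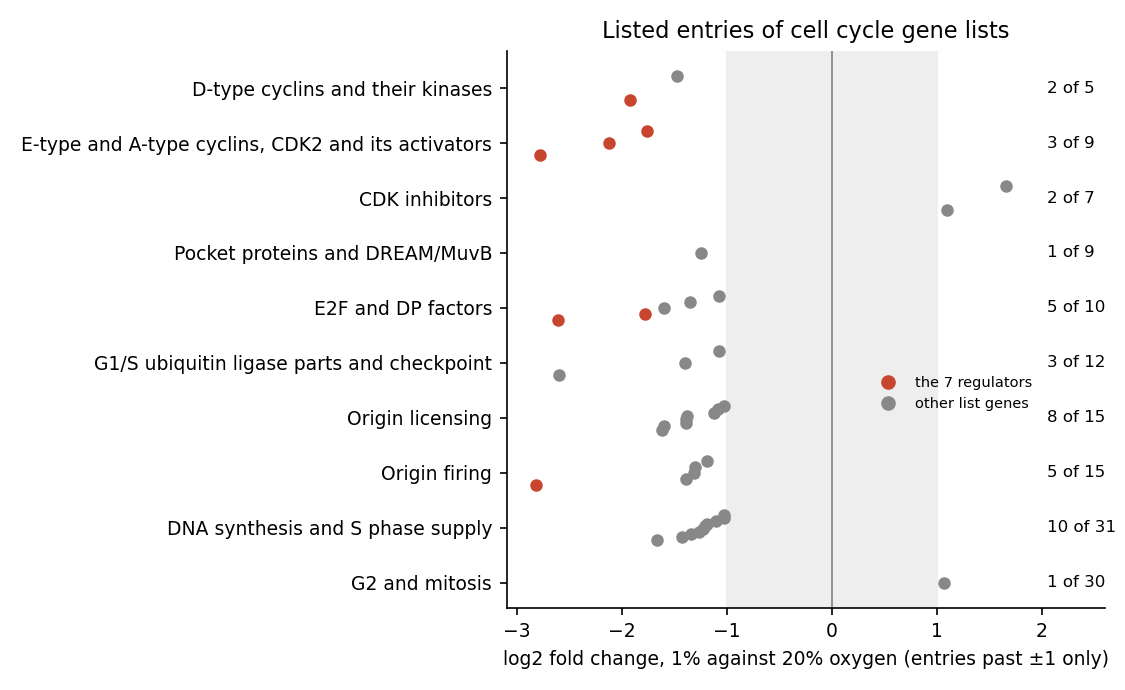
log2 fold change of 1% against 20% oxygen for each listed entry of 10 cell cycle gene lists, with the 7 regulators in red, other genes in grey and the number of listed entries of each list at the right. The grey band marks the range the authors' table does not cover. Points of the G1/S lists lie left of it, other than the 2 CDK inhibitors, and the G2 and mitosis list has 1 entry.

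Entries with the most similar profiles over the 6 libraries were found by the root-mean-square difference of centred log2 normalized counts among 2455 named entries. MCM10 was nearest to DSCC1 (0.149) and RRS1 (0.163), and CDC25A to CTPS1 (0.182) and CPLX2 (0.186). CPLX2 was also nearest to E2F2 (0.0953), followed by MVB12B (0.141). CCNE1 was nearest to KYNU (0.0519) and LYAR (0.0677), CCNE2 to DDIAS (0.101) and DDX21 (0.146), E2F1 to CCDC86 (0.0818) and MRPS26 (0.0876), and CCND3 to ESRP2 (0.0602) and LETM1 (0.0647). These likenesses rest mostly on the difference between the groups and are a description with no test.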

How the data were processed

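The deposited table gives whole-number read counts and FPKM values per library, made by the authors, with their false discovery rates (adjusted p-values) and log2 fold changes, per the file headers. Libraries came from a SMARTER mRNA-seq kit, per the labels' protocols. For the aligner, counter, build and strand setting, nothing is stated in the sources used here. Columns were matched to samples by oxygen level and replicate number, and 2 rows of annotation text without values were left out.

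Each listed entry had been selected as changed, so library scales were recovered from the authors' log2 fold changes and counts over 1442 entries above 200 counts (median residual 0.000202). They were 1.06, 1.02 and 1.11 for normoxia and 0.994, 0.844 and 0.997 for hypoxia replicates 1 to 3. The ratio of count to FPKM gave 1.04, 0.920, 0.945, 1.04, 1.04 and 1.03. Normalized counts are counts over the recovered scales, so their fold changes are no check of the authors' own. The 6 entries more than 1 (log2) from their own counts were left out, and none is a member. The edgeR 4.0.16 quasi-likelihood test used filterByExpr (0 entries removed) and Benjamini-Hochberg adjustment over 2675 entries at 0.05. SE was computed from F and the size of the log2 fold change. In simulated data on 2675 entries for the comparison of the 3 hypoxia with the 3 normoxia libraries, 82 of 100 changes of 1 and 99 of 100 changes of 2 (log2) were called, with 11 false calls among the unchanged entries. Most simulated entries were unchanged and shared the same dispersion. The listed entries were all selected as changed, so these rates do not carry over to them. limma 3.58.1 and DESeq2 1.42.0 were alternatives.

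Members, lists and motifs were chosen with earlier results of these data known. Named genes are the 7 members, any listed entry of the gene lists, and per member the 2 entries with the nearest profile. Coordinates, transcripts and GC content are from GENCODE 29, and promoters from RefSeq.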

Additional observations from a re-analysis of the deposited data

How the results depend on the processing

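Each of the 7 genes was called lower under all 16 alternatives, as were 37 pathway entries, and 1050 to 1157 of all entries. Leaving out 1 library at a time gave log2 fold changes of -2.89 to -2.72 for MCM10, -2.87 to -2.64 for CDC25A, -2.82 to -2.45 for E2F2, -2.39 to -1.90 for CCNE2, -2.04 to -1.85 for CCND3, -1.99 to -1.64 for E2F1 and -1.84 to -1.71 for CCNE1. A pseudocount of 1 on FPKM gave -1.28 for CCNE2 and -1.54 for E2F2, since it exceeds their hypoxic level. The largest adjusted p of a member was 0.00254, for CCNE2 without normoxia replicate 2. With the replicate block CCNE2 was at -2.08 (adjusted p = 0.000946) and MCM10 at -2.82, and no member lost its call. The replicate numbers gave no clear sign of pairing. Deviations of same-numbered libraries correlated at -0.49, -0.20 and 0.58, and normoxia replicate 1 correlated best with hypoxia replicate 2 (0.71). Deviations from the means of groups of 3 constrain each other, so this check cannot exclude pairing. Among the other pathway genes the calls of CDKN1B and ANLN ended under some scales. All entries were selected on these samples, so this stability is not independent of the selection. The other library scales moved each fall further down, so they could not have ended the call of a member.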

Other observations

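Promoter windows of the entries that fell and rose also differed in their letters. At least 1 of the 4 E2F words was in 7.53% of the 1168 windows of entries lower in hypoxia and in 2.49% of the 1568 windows of entries higher, against 3.31% of all windows. Among the 28 other G1/S list genes that were lower and had a window, 16 of 34 windows held a word (47.1%); those lists were drawn up by roles that are known for E2F control. The hypoxia response core was in 67.6% of the windows of lower entries, 56.1% of those of higher entries and 48.4% of all. In the 34 windows of the other G1/S list genes it was in 28 (82.4%). Median GC content was 66.0% in the lower, 64.7% in the higher and 58.7% in all windows, and its part in these shares was not tested. Genes with several starts have several windows, so windows are not independent.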
